A study of Oryza sativa with 4 samples.

Results

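The CCCH zinc finger genes of rice were followed on 4 Affymetrix Rice Genome Arrays, in leaves of an *OsABA8ox3* RNAi line and of wild type rice with and without an osmotic stress. A gene belonged to the group where its symbol or a synonym is C3H followed by a number, with or without the prefix Os, and where it is paired with a probe set of its own. This gave 50 genes of the 17905 that were paired in this way, and these 50 have 70 probe sets. The gene table names 53 C3H genes, and C3H38, C3H56 and C3H67 among them had no probe set of their own. The leaves came from seedlings of the cultivar Zhonghua 11 (ZH11) at the 4-leaf stage. RNAi-9 is 1 transgenic line that carries an inverted repeat of part of *OsABA8ox3*, the gene of an ABA 8'-hydroxylase that breaks down abscisic acid (ABA). The paper reports that it was chosen for a single insertion and for lowered *OsABA8ox3* expression by quantitative real-time PCR. The methods used here do not name the promoter of the repeat. The wild type (WT) is labelled as ZH11, and the methods count ZH11 transformed with the vector pYL as WT. Each line was sampled after 2 h in 20% polyethylene glycol (PEG), which draws water from the roots and mimics drought, and at 0 h. The number of seedlings behind an array is not given in the sources used here.

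CCCH zinc finger proteins hold a zinc ion with 3 cysteines and 1 histidine and bind mainly RNA. In plants, a branch of the family carries a pair of such fingers in tandem behind an arginine-rich stretch. Tandem zinc finger proteins of *Arabidopsis* gather in cytoplasmic granules where mRNA is stored or degraded, and several of them act in ABA, drought and salt responses. Other members of the family take part in splicing, ubiquitination, flowering and brassinosteroid signalling.

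Each of the 4 conditions was measured on 1 array, so that no difference has a replicate check, a p-value or a standard deviation. The design holds no unstressed sample at 2 h, and PEG and time cannot be told apart. Values are log2 signals. A signal under 6, which is low on these arrays, was raised to 6, and a gene with several probe sets was given as their mean. Differences are in log2 units, a gene counted as higher or lower at over 2-fold, which is 1 log2 unit, and counts of C3H genes past 2-fold are given beside the share of all 17905 genes that passed the same rule. As levels of different probe sets are not comparable, each gene is set only against itself. The median log2 signal of all probe sets lay between 5.32 and 5.45 on the 4 arrays. Of 9 leaf marker genes, 8 were above 6 on every array, among them the light harvesting gene CAB2R at 15.38 and 15.48 in RNAi-9 at 2 h and 0 h, and at 15.08 and 15.37 in WT. The genes Lsi1 and IRT1, known from roots, were above 6 on at least 1 array, and the other 3 of 5 root markers were at 6 on all arrays. Lsi1 had 8.51 at 2 h against 10.17 at 0 h in RNAi-9, and 9.19 against 10.07 in WT, so that it was lower after PEG in both. IRT1 was at the floor of 6 at 2 h against 7.48 at 0 h in RNAi-9, and had 6.74 against 8.66 in WT, so that it too was lower in both. The part of these root markers in the results was not tested. The silenced gene itself, *OsABA8ox3*, was not analysed here, since the annotation lists no probe set for it. The RNAi label thus rests on the sources, among them the PCR measurement that the paper reports for this line.

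Of the 50 C3H genes, 43 were above 6 on at least 1 array and 40 on all 4. C3H1, C3H9, C3H23, C3H34, C3H40, C3H43 and C3H47 were at 6 on all arrays, and no change can be read for them. C3H47 is a gene whose overexpression is known to raise drought tolerance in rice, and its deposited signals were 4.46 and 4.56 in RNAi-9 at 2 h and 0 h, and 4.24 and 3.55 in WT. After PEG, 4 genes rose in RNAi-9 (all genes, 9.34%) and 5 in WT (all genes, 10.0%), and the same 4 genes rose in both genotypes (all genes, 7.19%). These 4 were C3H35, C3H10, C3H3 and C3H11, and C3H50 was the other gene that rose in WT. Another 3 genes fell in RNAi-9 (all genes, 9.29%) and 4 in WT (all genes, 9.47%), with C3H49 and C3H44 among both (all genes, 5.36%). C3H22 fell in RNAi-9, and C3H16 and C3H54 fell in WT. The shares of the C3H genes that rose, 8.0% in RNAi-9 and 10.0% in WT, lay near those of all genes, and so did the shares that fell, 6.0% and 8.0%. The median change of the 50 genes was −0.09 in RNAi-9 and −0.09 in WT, beside −0.007 and 0 for all genes. The lower and upper quartiles of the C3H genes were −0.53 and 0.06 in RNAi-9, and −0.46 and 0.23 in WT.

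**Figure D1:**
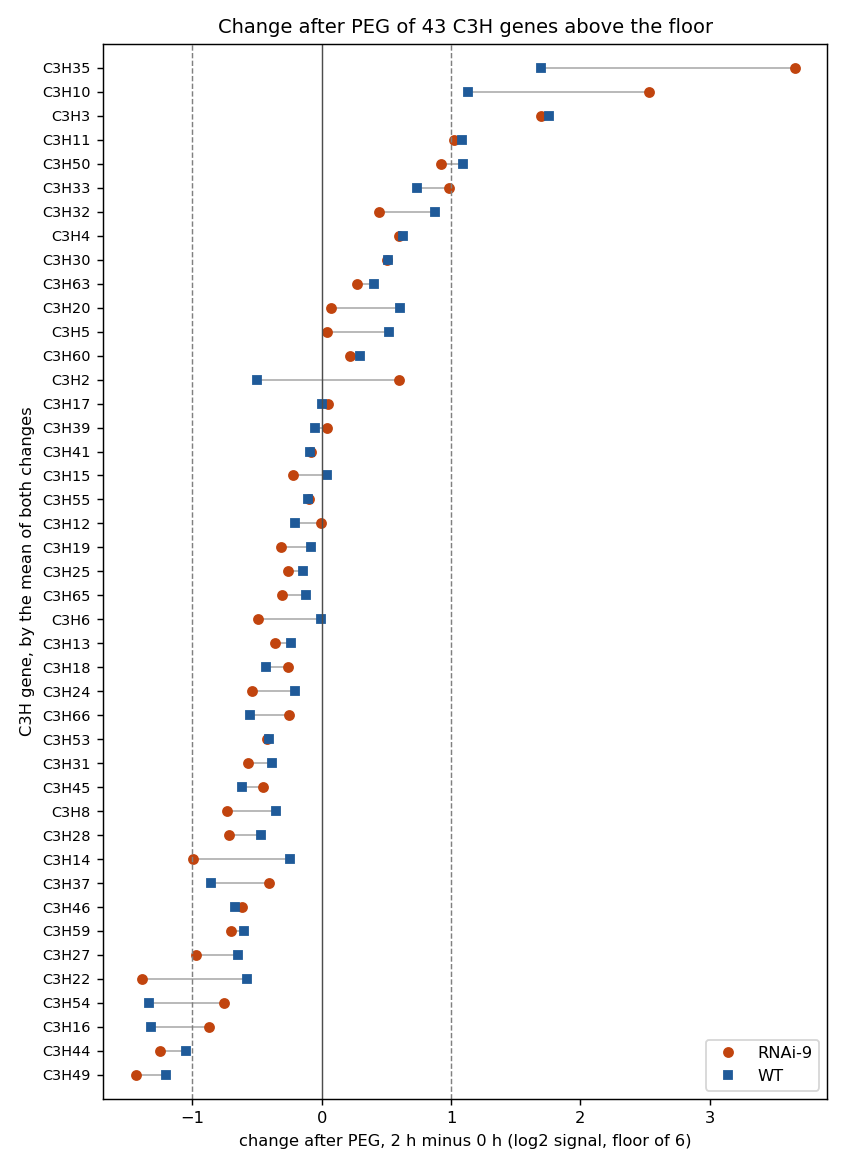
Change after PEG (2 h minus 0 h, log2 signal with a floor of 6, horizontal axis) of the 43 C3H genes above the floor on at least 1 array, with RNAi-9 as circles and WT as squares, 1 array per condition. Dashed lines mark 2-fold. C3H35 and C3H10 stand at the top with a longer gap between RNAi-9 and WT than the other genes, at 3.66 against 1.70 and 2.53 against 1.13.

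The changes of the 2 genotypes were correlated across the C3H genes, to a like degree as across all genes. Of the 50 genes, 14 had a change above 0 in both genotypes, 26 below 0 in both, 7 stood at 0 and 3 had opposite signs. No share over all genes is given here for these counts, so they describe the 50 genes and set them apart from no others. Across the 50 genes, the Pearson correlation between the changes in RNAi-9 and in WT, which share no array, was 0.855, or 0.864 without C3H35 and C3H10. It was 0.863 across all 17905 genes, and genes are not independent replicates. The difference of changes, RNAi-9 minus WT, was within 0.5 for 36 of the 43 genes above the floor on at least 1 array, or 83.7%, beside 74.1% of all 15134 genes above it. Under a scaling to the hybridization controls, described below, these shares were 58.1% of the C3H genes and 58.1% of all genes above the floor. The difference of changes was above 1 for C3H35, C3H10 and C3H2 (all genes, 2.81%) and below −1 for 0 of 50 (all genes, 2.45%). Its median over the 50 genes was −0.02. Above the floor, 16 C3H genes (37.2%) lay above 0 and 27 (62.8%) below, beside 47.3% and 52.7% of all genes. This split varied with the scaling. With the arrays set to the same median of all probe sets it was 22 and 21 (all genes above the floor, 54.8% and 45.2%). Quantile normalization kept 16 and 27 (all genes above the floor, 46.5% and 53.5%). The median of probe sets of at least 8 gave 19 and 24 (all genes above the floor, 50.2% and 49.8%). Under the hybridization controls it was 6 and 37 (all genes above the floor, 20.7% and 79.3%).

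**Figure D2:**
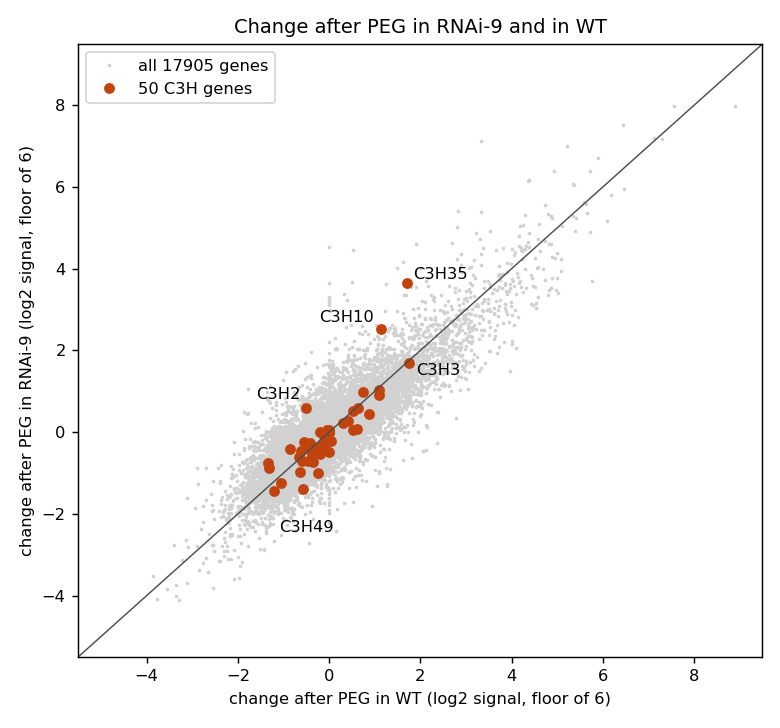
Change after PEG in RNAi-9 (vertical axis) against that in WT (horizontal axis), in log2 signal with a floor of 6, for all 17905 genes (grey) and the 50 C3H genes (coloured), with the line of equal change. Most C3H genes lie near the line, while C3H35, C3H10 and C3H2 lie above it by 1.96, 1.40 and 1.10.

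C3H35, also known as OsTZF1, encodes a tandem zinc finger protein that binds RNA, delays leaf senescence and raises stress tolerance in rice when overexpressed. It rose more than any other C3H gene in RNAi-9. Its level was 11.24 at 2 h against 7.59 at 0 h in RNAi-9, and 9.14 against 7.44 in WT. The gene rose by 3.66 in RNAi-9 and by 1.70 in WT. The 0 h arrays differed by 0.15 and the 2 h arrays by 2.11, so that the gap between the genotypes was present after PEG and small before it. Among all 17905 genes, its difference of changes of 1.96 ranked 43 from the top, and its rise in RNAi-9 ranked 118 and that in WT 884. The study selected this gene, as Os05g10670, on these same arrays, and its rank is no independent evidence.

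The 3 probe sets of C3H35 changed in the same direction. The brightest of them had 12.69 at 2 h against 9.19 at 0 h in RNAi-9, and 10.92 against 8.94 in WT. The dimmest had 10.17 against 6.39 in RNAi-9, and 7.81 against 5.997 in WT. The third, whose name ends in _x_at and which may also hybridize to other transcripts, had 10.86 against 7.18 in RNAi-9, and 8.67 against 7.38 in WT. Every one of them rose more in RNAi-9, and their differences of changes as deposited were 1.53, 1.96 and 2.39. The study also measured this transcript by quantitative real-time PCR, and the primers of that assay are shown because they mark the transcript that was called Os05g10670.
C3H35 forward primer: tcaactgagcaaacccaacaag
C3H35 reverse primer: ctgctaccttctgcttccactatg
They are written 5′ to 3′ as designed, of 22 and 24 bases, and their PCR values were not used.

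C3H10, a gene whose overexpression is known to raise drought tolerance in rice, was at the floor before PEG and above it after PEG in both genotypes. The signal of its single probe set was 8.53 at 2 h against 5.01 at 0 h in RNAi-9, and 7.13 against 4.67 in WT. With the floor, it rose by 2.53 in RNAi-9 and by 1.13 in WT, and as deposited by 3.52 and 2.46. Since both 0 h signals lay under 6, the size of either rise depends on the floor. The 2 h level was higher in RNAi-9 by 1.40, and the difference of changes was 1.40 with the floor and 1.07 as deposited. Scaling to the hybridization controls, bacterial and phage transcripts that report on hybridization, gave a difference of changes of 0.98, which is under 2-fold. With a floor of 8 it was 0.53.

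C3H2, named OsDOS for its role in delaying the onset of leaf senescence, had changes of opposite sign in the 2 genotypes, each under 2-fold. Its level was 10.25 at 2 h against 9.65 at 0 h in RNAi-9, and 9.46 against 9.96 in WT, a change of 0.60 in RNAi-9 and −0.50 in WT. The difference of 1.10 came mainly from 1 of its 2 probe sets. The dimmer one had 8.11 against 6.94 in RNAi-9, and 7.01 against 7.41 in WT, a difference of changes of 1.58. The brighter one, whose name ends in _s_at and which may hybridize to several transcripts, had 12.38 against 12.35 in RNAi-9, and 11.91 against 12.51 in WT, a difference of 0.63. The difference of changes passed 2-fold as the mean and in the dimmer probe set. As the mean it was under 2-fold in 3 alternatives, at 0.73 under the scaling to the hybridization controls, 0.98 with the offset of 32 and 0.37 with a floor of 8.

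**Figure D3:**
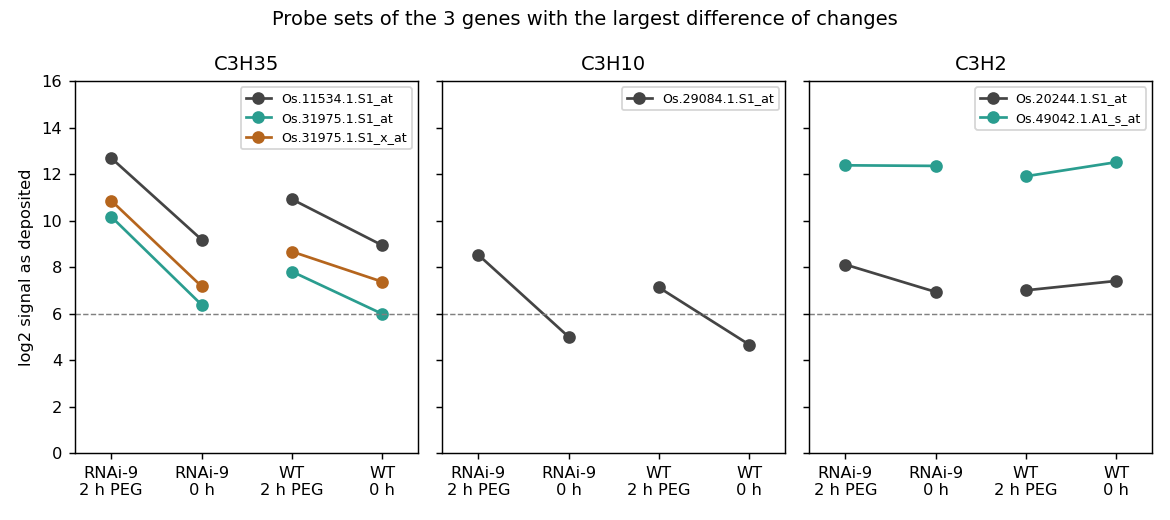
Log2 signal as deposited of each probe set of C3H35, C3H10 and C3H2 on the 4 arrays, RNAi-9 at 2 h of PEG and 0 h and WT at 2 h of PEG and 0 h, with lines joining the arrays of 1 genotype and the floor of 6 dashed. All 3 probe sets of C3H35 are higher at 2 h than at 0 h in both genotypes, C3H10 starts under the floor in both genotypes, and the probe sets of C3H2 differ in the size of their change.

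Of the other genes that rose, C3H3 rose by nearly the same amount in both genotypes. Its level was 9.51 at 2 h against 7.81 at 0 h in RNAi-9, and 9.80 against 8.04 in WT, a rise of 1.70 in RNAi-9 and of 1.76 in WT. C3H11 had 10.09 against 9.07 in RNAi-9, and 10.52 against 9.43 in WT, and rose by 1.02 and 1.08. Of its 2 probe sets, the one ending in _x_at rose by 1.29 in RNAi-9 and 1.17 in WT, while the other had changes of 0.75 and 0.99. Its call in RNAi-9 was lost under the scaling to the hybridization controls, with the offset of 32, by the highest probe set and without the probe sets ending in _x_at, _s_at or _a_at, and its call in WT under the last 2 of these and with the arrays set to the same median of all probe sets. C3H50 had 12.27 against 11.35 in RNAi-9, and 12.10 against 11.02 in WT, where it rose by 1.09 beside a change of 0.92 in RNAi-9, a call that was lost with the arrays set to the same median of all probe sets. The change of C3H33 stayed just under 2-fold in RNAi-9 at 0.99, with 14.04 at 2 h against 13.05 at 0 h, and was 0.73 in WT, with 13.90 against 13.16. C3H32 had a change of 0.44 in RNAi-9 and 0.87 in WT, C3H4 of 0.60 and 0.63, and C3H30 of 0.50 and 0.51. In these 7 genes the changes of the 2 genotypes differed by less than 0.5.

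C3H49 and C3H44 fell in both genotypes. C3H49 fell by 1.44 in RNAi-9 and fell by 1.21 in WT, with 7.59 at 2 h against 9.02 at 0 h in RNAi-9, and 7.45 against 8.66 in WT. C3H44 fell by 1.25 in RNAi-9 and fell by 1.05 in WT, with 7.73 against 8.98 in RNAi-9, and 8.16 against 9.21 in WT. The call of C3H44 in WT was lost under 4 alternatives of normalization, namely quantile normalization, the offset of 32, and the scalings to the hybridization controls and to probe sets of at least 8. C3H54 had 12.61 at 2 h against 13.36 at 0 h in RNAi-9, a change of −0.76, and fell by 1.33 in WT, with 11.98 against 13.31. C3H16 had 8.28 against 9.15 in RNAi-9, a change of −0.87, and fell by 1.32 in WT, with 7.53 against 8.85. For these 2 genes the level in RNAi-9 was above that in WT by 0.63 and 0.75 at 2 h, and by 0.05 and 0.30 at 0 h. The scaling to the hybridization controls moved the median genotype difference of all probe sets at 2 h by −0.43. C3H22 was the member that fell in RNAi-9 alone. It fell by 1.39 in RNAi-9, with the floor of 6 at 2 h against 7.39 at 0 h, and had 6.40 against 6.98 in WT, a change of −0.58. Its deposited signal in RNAi-9 at 2 h was 5.78, under the floor, so that 1.39 is a lower bound of the fall, and as deposited it fell by 1.61. Its difference of changes was −0.81 with the floor, the lowest of the 50 there, and −1.03 as deposited, where C3H65 was lower at −1.39. C3H23, the next gene to it in the order of the gene table, was at the floor on all arrays. Under the scaling to the hybridization controls, 3 C3H genes rose (all genes, 6.97%) and 7 fell in RNAi-9. Those that fell were C3H14, C3H16, C3H22, C3H27, C3H44, C3H49 and C3H54, beside 16.2% of all genes. Without that scaling, C3H14 had a change of −0.999 in RNAi-9 and −0.25 in WT, and C3H27 of −0.97 and −0.64. C3H59 had changes of −0.70 and −0.60, and C3H8 of −0.74 and −0.36. C3H6 had 10.78 at 2 h against 11.28 at 0 h in RNAi-9, and 10.990 against 10.998 in WT, so that its change was −0.49 in RNAi-9 and near 0 in WT. C3H4, C3H5 and C3H6 lie near each other in the gene order, with 3 and 4 genes between them, and their changes differed in sign in RNAi-9, at 0.60, 0.04 and −0.49. Of all 50 genes, 22 stayed within 0.5 in both genotypes, 15 of them above the floor on at least 1 array. No share over all genes is given here for these counts, so they are not read as a trait of the family. A probe set at or near the floor can draw the mean of its gene towards 0. C3H63, among the 15, had changes of 0.27 in RNAi-9 and 0.40 in WT as the mean. Its brighter probe set had 0.54 and 0.54.

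The 4 members with roles outside stress described next had changes under 2-fold in both genotypes. C3H60 (U2AF35A), the small subunit of the splicing factor that recognises the end of introns, had 10.40 at 2 h against 10.18 at 0 h in RNAi-9, and 9.76 against 9.46 in WT. Its level was thus higher in RNAi-9 at both times, by 0.65 at 2 h and 0.72 at 0 h, with changes of 0.22 and 0.30. Under the hybridization-control scaling, the median genotype difference of all probe sets moved by −0.43 at 2 h and by −0.05 at 0 h. C3H20 (Ehd4), which promotes flowering through the gene Ehd1, had 11.75 against 11.68 in RNAi-9, and 11.96 against 11.36 in WT, changes of 0.07 and 0.60. C3H46 (LIC), which acts against brassinosteroid signalling and shapes leaf and tiller angle, had 7.92 against 8.54 in RNAi-9, and 7.73 against 8.40 in WT, changes of −0.62 and −0.67. C3H41 (MKRN), named as a makorin, a kind of RING finger ubiquitin ligase, was nearly level. It had 11.43 against 11.52 in RNAi-9, and 11.41 against 11.50 in WT, so that the 4 arrays spanned about 0.1.

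C3H12, known for resistance to bacterial blight, showed how far probe sets of 1 gene can part. The mean over its 4 probe sets had changes of −0.008 in RNAi-9 and −0.21 in WT. The probe set at 8.19 in RNAi-9 at 2 h had changes of 0.84 in RNAi-9 and 0.54 in WT, while that ending in _a_at had −0.29 and −0.72, and that ending in _x_at had −0.58 and −0.66. The remaining probe set was under 6 on all arrays. Among the 14 genes with several probe sets, C3H8, C3H12, C3H17 and C3H55 had probe sets whose floored changes differed in sign in at least 1 genotype. In C3H8 this rested on a change of 0.0008 beside −0.71 in WT, and both of its probe sets were lower after PEG in RNAi-9. In C3H17 it rested on a probe set at 6.37 in WT at 0 h and under 6 on the other arrays.

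The genotypes were also set against each other at each time. At 0 h, the level in RNAi-9 was above that in WT by over 2-fold for 0 of 50 (all genes, 3.21%) and below it for 0 (all genes, 1.68%), counts that at these shares are near the background. The differences lay between −0.37 for C3H11 and 0.72 for C3H60. Of the 43 C3H genes above the floor on at least 1 array, 41 (95.3%) were within 0.5 at 0 h, beside 76.4% of the 15134 genes above the floor in all, which was not tested. C3H5 was the other gene beyond 0.5, with 8.11 in RNAi-9 against 7.42 in WT at 0 h, and 8.16 against 7.93 at 2 h. At 0 h, 31 of these 43 C3H genes lay above 0 and 11 below (all genes above the floor, 49.3% and 46.2%). This split varied with the scaling. With the arrays set to the same median of all probe sets it was 20 and 22 (all genes above the floor, 37.6% and 58.2%). Under the hybridization controls it was 24 and 18 (all genes above the floor, 44.1% and 51.7%). It stayed at 30 and 12 under quantile normalization (all genes above the floor, 47.5% and 48.0%). The median of probe sets of at least 8 also gave 30 and 12 (all genes above the floor, 47.6% and 47.2%). At 2 h, C3H35 and C3H10 were over 2-fold higher in RNAi-9 (all genes, 3.14%) and 0 of 50 were lower (all genes, 1.25%). Under the scaling to the hybridization controls, C3H35 was the 1 C3H gene over 2-fold higher at 2 h (all genes, 1.32%). Below 2-fold, C3H37 was higher in RNAi-9 by 0.86 at 2 h, with 12.45 against 11.59 in WT, and by 0.41 at 0 h, with 12.86 against 12.45. Its changes after PEG were −0.41 in RNAi-9 and −0.86 in WT. Under the scaling to the hybridization controls, the median genotype difference of all probe sets at 2 h moved by −0.43. The lowest differences at 2 h were −0.43 for C3H11 and C3H44 and −0.42 for C3H14. At 2 h, 24 C3H genes lay above 0 and 19 below (all genes above the floor, 45.9% and 50.9%). Under the scaling to the hybridization controls it was 7 and 35 (all genes above the floor, 16.2% and 80.5%). Under quantile normalization it was 24 and 19 (all genes above the floor, 43.7% and 52.8%). The median of all probe sets gave 23 and 20 (all genes above the floor, 42.5% and 54.0%). That of probe sets of at least 8 gave 25 and 18 (all genes above the floor, 48.4% and 49.1%).

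**Figure D4:**
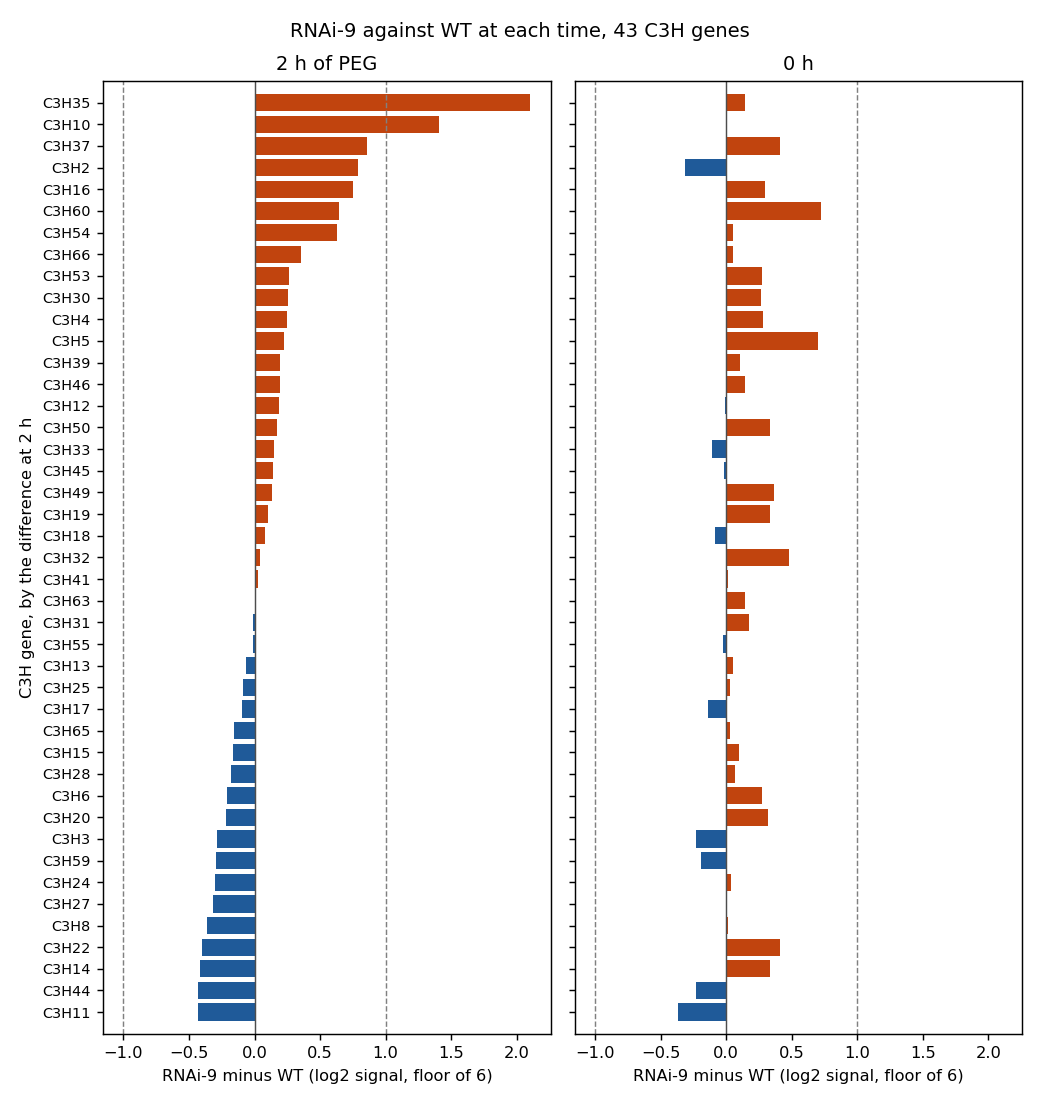
RNAi-9 minus WT in log2 signal with a floor of 6 (horizontal axes) at 2 h of PEG on the left and at 0 h on the right, for the 43 C3H genes above the floor, in the order of the difference at 2 h. Dashed lines mark 2-fold, which C3H35 (2.11) and C3H10 (1.40) pass at 2 h and no gene passes at 0 h.

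The C3H genes were set beside those genes of other zinc finger families that could be paired by symbol, with no test of the difference. These were 13 SAP and 6 WRKY genes, which need not stand for their whole families. Against 9.34% of all genes that rose in RNAi-9 and 10.0% in WT, of 13 SAP genes, which encode stress-associated proteins with A20 and AN1 zinc fingers, 2 rose in RNAi-9 and 4 in WT, with medians of 0.43 and 0.34. Of 6 WRKY genes, transcription factors of defence and stress responses, 2 rose in RNAi-9 and 4 in WT, with medians of 0.70 and 1.30. The median difference of changes was −0.24 for the SAP genes and −0.64 for the WRKY genes, beside −0.02 for the C3H genes. The difference of changes was above 1 for 0 SAP and 0 WRKY genes (all genes, 2.81%), and below −1 for 1 SAP gene and 2 WRKY genes (all genes, 2.45%). Of a list of mRNA decay genes, with which tandem zinc finger proteins act, only PAB1 and RRP46 could be paired. RRP46, a subunit of the RNA exosome, fell by 1.70 in RNAi-9 and fell by 1.66 in WT. It had 6.18 at 2 h against 7.88 at 0 h in RNAi-9, and 6.90 against 8.56 in WT. PAB1, a poly(A) binding protein, had changes of −0.008 and −0.08.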

How the data were processed

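Leaf RNA of RNAi-9 and WT at 2 h of 20% PEG and at 0 h was hybridized to Affymetrix Rice Genome Arrays, 1 per condition. The authors collected and scaled the signals array by array with GCOS (MAS5 is named as the tool, with no version) and deposited them as log2 values. The scaling target is not given in the sources used here. Arrays have no read depth, so precision is limited by their number.

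Of 57258 rice probe sets (123 controls left out), 22436 were paired with 1 gene, 95 with several and the rest with none, through the platform annotation and a gene table on assembly ASM3414082v1, used for names and gene order only. Signals under 6 were raised to 6 and probe sets of a gene averaged. No test was run. The code was tested on simulated data.

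The members and lists were chosen with earlier results of these data known. Named genes were C3H35, the 8 highest and 8 lowest C3H genes by mean change, the 5 highest and 5 lowest by difference of changes and by genotype at each time, those over 2-fold changed and those with a known role. C3H12, C3H47, C3H41 and C3H30 and genes with disagreeing probe sets were named after their values were seen. Of the leaf list, an ABA receptor gene whose synonym RCAR5 matched was left out. Seed markers were computed too, and 2 of 5 were above 6. Finger architecture and promoter motifs were planned and not run, as no sequence table was used. Alternatives were floors of 5 and 8, no floor, an offset of 32, 4 other scalings (one to 9 hybridization controls), the highest probe set, no probe sets ending in _x_at, _s_at or _a_at, and folds of 1.5 and 3. For the median change in RNAi-9, the WT 0 h array as baseline was another alternative, and gave −0.04. Alternatives for the counts of genes by difference of changes and for C3H10 and C3H2 were added after the data were seen. Python 3.11.15, numpy 2.4.6 and pandas 2.3.3 were used.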

Additional observations from a re-analysis of the deposited data

Results flagged for a closer look

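In 3 C3H genes the change after PEG had opposite signs in RNAi-9 and WT, with 1 array per condition, so that the difference was not tested. No share of all genes with opposite signs is given here, so the count is not read as a result about the family. For C3H2 (OsDOS) the change was 0.60 in RNAi-9 and −0.50 in WT, a difference of 1.10. For C3H15 it was −0.22 in RNAi-9 and 0.04 in WT, a difference of −0.26, and for C3H39 it was 0.04 and −0.05, a difference of 0.093, from levels that were at or just above the floor. The mean of C3H15 includes a probe set that was under 6 on all arrays. Its brighter probe set had changes of −0.44 in RNAi-9 and 0.08 in WT. For all 3 genes the change in each genotype was below 2-fold.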

How the results depend on the processing

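No paired analysis was possible because each condition has 1 array and the labels give no replicate numbers, and for the same reason no replicate could be left out. Of 265 alternative values, 179 stayed within 1.5 times a count or within 0.1 of a log2 value, 86 moved and 0 changed direction. A count of genes has no direction to change, so the 0 bears only on the log2 values. Counts at 1.5-fold and 3-fold use another threshold than the main counts and can move for that reason. The cause of the other moves was not tested. The alternatives for the counts of genes by difference of changes and for C3H10 and C3H2 were chosen after seeing the data. Shares (or counts) of all genes under the same setting are in brackets. Finger architecture and promoter motifs were not run.

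With no floor, 9 C3H genes rose in RNAi-9 (2860 of 17905 genes), 4 were higher (9.29%) and 2 lower (6.84%) in RNAi-9 at 2 h, 3 higher (10.6%) and 3 lower (6.92%) at 0 h, and the difference of changes was over 2-fold above 0 for 7 (9.90%) and below 0 for 3 (10.9%). C3H1, C3H9, C3H34, C3H40 and C3H43, at the floor of 6 on all arrays, are among those 9. With a floor of 5, 1 gene had a lower change (4.05%). With a floor of 8, 3 rose in WT (7.14%) and 2 in both genotypes (5.11%), 1 fell in RNAi-9 (5.57%), 2 in WT (5.93%) and 0 in both (3.27%), and 1 gene was higher at 2 h (1.63%) and 1 had a higher change (1.64%). At 1.5-fold, 8 rose in RNAi-9 (15.4%), 9 in WT (2861 of 17905 genes) and 7 in both (11.6%), 11 fell in RNAi-9 (22.4%), 9 in WT (23.2%) and 7 in both (2857 of 17905 genes), 7 were higher at 2 h (8.10%) and 2 at 0 h (8.34%), and 2 had a lower change (8.87%). At 3-fold, 2 rose in WT (5.59%) and 2 in both (3.79%), 0 fell in RNAi-9 (2.17%), 0 in WT (2.09%) and 0 in both (0.938%), and 1 was higher at 2 h (0.905%) and 1 had a higher change (0.592%). Scaled to the hybridization controls, 7 fell in RNAi-9 (16.2%), 1 was higher at 2 h (1.32%), 1 had a higher (1.14%) and 1 a lower change (7.24%). The median of all probe sets gave 3 that rose in WT (9.17%). Genes that fell in both were 1 under the median of probe sets of at least 8 (3.75%), 1 under quantile normalization (4.14%) and 1 with the offset of 32 (4.56%), which also gave 1 lower gene at 2 h (1.42%).

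The change of C3H35 in RNAi-9 was 2.85 with a floor of 8, 3.50 by its highest probe set, 3.39 with the hybridization controls, 3.80 with the median of probe sets of at least 8 and 3.402 with the offset. In WT it was 0.88 with a floor of 8, which is under 2-fold, 1.98 by the highest probe set, 1.80 with the hybridization controls, 1.496 with the offset and 1.90 without the probe sets ending in _x_at, _s_at or _a_at, which left 47 genes. Its difference of changes was 1.53 by the highest probe set, 1.58 with the hybridization controls and 1.75 without those probe sets, and was over 2-fold under each of the 10 alternatives. That of C3H10 lay between 0.53 and 1.43, and that of C3H2 between 0.37 and 1.58. The median change in RNAi-9 was −0.19 by the highest probe set, −0.31 with the hybridization controls and −0.19 with no floor, and the median difference of changes was −0.39 with the hybridization controls, which moved the median difference of all probe sets by −0.37.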
